A study of Mus musculus with 6 samples.

Results

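E2F, DREAM and Foxm1 regulators are transcription factors that switch cell-cycle genes on and off. The members were the rows of the deposited count table whose symbol was E2f1, E2f2, E2f3, E2f4, E2f7, E2f8, Tfdp1, Mybl2, Foxm1 or Lin54, which gave 10 genes of 49997 listed. They were followed in RNA-seq libraries from small pre-B cells, sorted by flow cytometry from the bone marrow of C57BL/6 mice aged 6 to 12 weeks. WT mice were compared with mice of the genotype written rsCBE in the sample labels and ΔrsCBE in the design text, with 3 libraries per genotype. The Δ stands for a deletion, which the title of the series links to chromatin folding by CTCF and to receptor editing; the deleted interval is not given in the sources used here. No transgene, treatment or other allele is named for either genotype. The labels do not say whether each library came from its own mouse. Each p-value sets a difference against the spread between these libraries. Sex patterns differed among the ΔrsCBE libraries, so these did not all come from the same mouse. The spread within WT may be technical, and that within ΔrsCBE may be so in part.

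In a resting cell, E2F4 binds DNA with a DP partner such as TFDP1, a pocket protein and the MuvB core, whose DNA-binding subunit is LIN54. This DREAM complex holds cell-cycle genes down. When cyclin-dependent kinases inactivate the pocket proteins, the activator E2Fs (E2F1, E2F2, E2F3) turn on genes of the G1/S transition, among them the genes for B-MYB (Mybl2) and for the atypical repressors E2F7 and E2F8. B-MYB with MuvB and then FOXM1 drive the genes of G2 and mitosis, while E2F7 and E2F8 damp the E2F program again. Large pre-B cells divide, and small pre-B cells have mostly stopped dividing and rearrange their light chain genes.

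Of the 10 regulators, 1 fell in ΔrsCBE and 0 rose at an adjusted p under 0.05, where 1.49% of all tested genes fell and 0.205% rose. The gene that fell was E2f8, by 0.82 on the log2 scale, or 43.3%. This count was 0 without WT replicate 1, without WT replicate 3 and without ΔrsCBE replicate 3. Foxm1 had a log2 fold change of nearly the same size, -0.73, but did not pass the threshold. The genes of the activators E2F1, E2F2 and E2F3 and of the repressor E2F4 had log2 fold changes between -0.17 and 0.11. The most abundant of them, E2f2, was measured closely enough that its 95% interval ended at -0.23 and 0.20.

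Promoter sequences show which of the textbook elements of this circuit lie near annotated transcript starts of the regulators themselves. RefSeq windows on GRCm38.p6, from 250 bases before a transcript start to 50 bases after it, matched 8 of the 10 genes by symbol, with 12 windows; Foxm1 and E2f4 were not among them. The bases before the start are printed for E2f8, which fell, for E2f7, the other atypical E2F gene, which did not pass the test, and for Mybl2, a textbook E2F target in the same circuit. Capitals mark matches to 5 E2F words (the word TTCCCGC, the word TTCGCGC, the word TTGCCGC, the word TTGGCGC and the word GGCGGGA), to the 2 forms of the CHR element bound by MuvB (the word TTTGAA or the word TTCGAA) and to the CCAAT box, each on either strand. The word GTAAACA, bound by forkhead factors, was searched as well.
E2f8, chr7:48881597-48881846, minus strand: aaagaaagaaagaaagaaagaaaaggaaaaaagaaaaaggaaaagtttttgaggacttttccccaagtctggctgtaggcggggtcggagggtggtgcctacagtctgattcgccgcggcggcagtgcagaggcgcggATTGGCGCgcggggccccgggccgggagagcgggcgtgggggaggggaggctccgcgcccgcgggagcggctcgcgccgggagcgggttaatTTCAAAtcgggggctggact
E2f7, chr10:110745189-110745438, plus strand: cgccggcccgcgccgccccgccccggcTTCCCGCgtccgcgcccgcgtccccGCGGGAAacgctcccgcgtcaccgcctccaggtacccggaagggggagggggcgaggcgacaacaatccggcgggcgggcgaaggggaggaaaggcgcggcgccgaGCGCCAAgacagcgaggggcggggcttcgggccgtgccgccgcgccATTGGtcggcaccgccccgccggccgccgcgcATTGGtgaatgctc
Mybl2, chr2:163054385-163054634, plus strand: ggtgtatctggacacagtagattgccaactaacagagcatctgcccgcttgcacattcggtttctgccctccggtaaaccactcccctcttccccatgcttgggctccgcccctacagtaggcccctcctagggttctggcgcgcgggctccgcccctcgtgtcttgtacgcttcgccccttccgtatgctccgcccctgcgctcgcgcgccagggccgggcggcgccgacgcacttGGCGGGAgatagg

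In the E2f8 sequence the first capitals hold CCAAT (read as ATTGG) and the E2F word TTGGCGC, which overlap and begin 112 and 111 bases before the start. The second capitals are a CHR element, read as TTCAAA, which begins 20 bases before the start. The E2f7 sequence holds 3 E2F matches and 2 CCAAT matches and no CHR match. The Mybl2 sequence holds 1 E2F match, GGCGGGA, 13 bases before the start. In whole windows of 300 bases, at least 1 of the 5 E2F words occurred in 9 of the 12 windows of the regulators and in 17.3% of all 32851 windows. CHR occurred in 5 of the 12 and in 19.2% of all, and CCAAT in 6 of the 12 and in 37.4% of all. GTAAACA occurred in none of the 12 and in 3.65% of all. The E2f1 window and 1 of the 2 windows each of E2f2, E2f3 and Lin54 lay wholly inside the annotated gene. The windows of 1 gene can overlap, and a match is a description of the letters, not a binding site.

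Total counts ranged from 428106 to 1300805 per library, and 447 to 1493 of them fell on the 10 regulators. At this depth 3 counts, taken as the smallest detectable amount, equal 2.38 to 7.36 CPM, the count of a gene after scaling every library to the same total, counting error only. Defining B-lineage genes were abundant: the 12 markers of this lineage, among them Pax5, Rag1 and Cd79a, summed to 12363 to 14146 CPM in WT and 13759 to 14255 CPM in ΔrsCBE. The 5 T and NK cell markers were at 0 in every library, and 4 of the 5 erythroid markers were at 0. The 6 myeloid markers, with Elane and S100a8 at 0, summed to at most 8.84 CPM. Markers of neighbouring B stages were detected. The 8 pro-B and large pre-B markers summed to 466 to 520 CPM in WT and 445 to 578 CPM in ΔrsCBE. Of these, Il7r alone averaged 455 and 479 CPM. The 6 immature and mature B markers summed to 240 to 299 and 227 to 243 CPM. The 4 plasma cell markers summed to 98.1 to 120 and 119 to 147 CPM. The share of dividing large pre-B cells was not measured. Sex differed between libraries. Xist and Y-linked counts showed a female pattern in ΔrsCBE replicates 2 and 3 and a male pattern in the other 4 libraries, so sex and genotype are partly confounded. Of 7792 genes tested by edgeR's quasi-likelihood test, 116 (1.49%) were lower and 16 (0.205%) were higher in ΔrsCBE at an adjusted p under 0.05, and over all these genes the median log2 fold change was 0.01.

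All 10 regulators passed the filter on low counts and were tested. They differed widely in level, which can be compared between genes only per length. In WT, E2f2 had 134 ± 6.12 CPM per kilobase of exon (SD, n = 3), 4.45 times the level of the next gene. E2f4 (30.04 ± 5.45), E2f8 (23.5 ± 3.37) and Foxm1 (22.3 ± 2.92 CPM per kilobase) came next, each overlapping the range of its neighbour in this order. Foxm1 lay 2.83 times above the gene that followed, and their ranges did not overlap. Lin54, Tfdp1, E2f1, Mybl2, E2f7 and E2f3 lay between 7.87 and 4.0046 CPM per kilobase, and the WT range of each overlapped that of the next. E2f2 therefore supplied most of the counts: its part of all reads on the 10 genes was 54.6% to 56.6% in WT and 58.98% to 65.2% in ΔrsCBE.

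**Figure D1:**
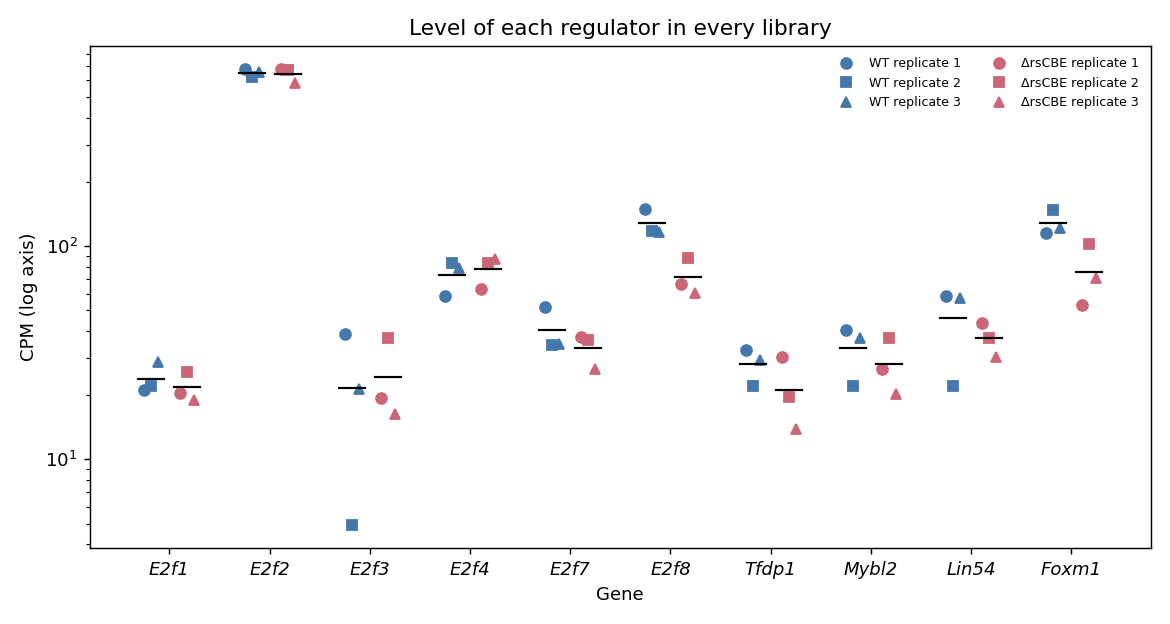
CPM of each of the 10 regulators (log axis) in every library; blue symbols are WT, red symbols are ΔrsCBE, symbol shape gives the replicate number and black lines are the means of 3 libraries. The 2 colours stand apart for E2f8 and Foxm1 and overlap for the other 8 genes, and E2f2 lies far above the rest in both genotypes.

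The activator E2Fs were described first, since they start the G1/S program. E2f2 (chromosome 4, 136172394 to 136196057, plus strand, GENCODE M21 on GRCm38) stood at 679.8, 620.4 and 656 CPM across the WT replicates 1 to 3, against 675, 672 and 586 CPM across the ΔrsCBE replicates. The groups overlapped, and only ΔrsCBE replicate 3 lay below the WT libraries. The log2 fold change was -0.02 (SE 0.10, edgeR adjusted p-value 0.978). E2f1 (chromosome 2, 154559407 to 154569892, minus strand), the founding activator of the family, had 21.1, 22.1 and 28.5 CPM in WT and 20.6, 25.8 and 18.9 CPM in ΔrsCBE. Its groups overlapped, and with 9 to 36 counts per library the 95% interval of its log2 fold change ran from -0.82 to 0.47.

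E2f3 (chromosome 13, 29906575 to 29986063, minus strand) was the least evenly measured of the 10. Its WT values were 38.9, 4.90 and 21.4 CPM, and its ΔrsCBE values 19.4, 37.2 and 16.4 CPM, so the WT libraries alone covered the whole ΔrsCBE range. WT replicate 2, the shallowest library, had 2 counts of it, which is below the 3-count floor. The log2 fold change was 0.11 (SE 0.42) with a 95% interval from -0.77 to 0.99. With counts this low and uneven, these libraries do not settle whether E2f3 differed between the genotypes. Without WT replicate 1 the log2 fold change was 0.60 and without ΔrsCBE replicate 2 it was -0.36, so even its sign rests on single libraries.

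Of the DREAM complex, which represses in resting cells, the 3 regulators E2f4, Tfdp1 and Lin54 did not pass the test. E2f4 (chromosome 8, 105297663 to 105305370, plus strand), its E2F subunit, had 58.4, 83.4 and 79.2 CPM in WT and 62.9, 83.7 and 87.1 CPM in ΔrsCBE, with the lowest value of each group in replicate 1. The log2 fold change was 0.08 (SE 0.20, edgeR adjusted p-value 0.953). Tfdp1 (chromosome 8, 13338751 to 13378448, plus strand), the gene of a DP partner that E2Fs need to bind DNA, had 32.4, 22.1 and 29.3 CPM in WT and 30.3, 19.6 and 13.9 CPM in ΔrsCBE. Its 2 lowest values were in ΔrsCBE replicates 2 and 3, and ΔrsCBE replicate 1 lay within the WT range. Its log2 fold change was -0.42, with a 95% interval from -1.10 to 0.25; among the male libraries alone it was 0.08. Lin54 (chromosome 5, 100441918 to 100500639, minus strand), the MuvB subunit that contacts the CHR element, measured 58.4, 22.1 and 57.0 CPM in WT and 43.6, 37.2 and 30.3 CPM in ΔrsCBE. All 3 ΔrsCBE values lay inside the WT range, because WT replicate 2 was the lowest of the 6. The log2 fold change was -0.41 (SE 0.27, edgeR adjusted p-value 0.665).

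Mybl2 (chromosome 2, 163054687 to 163084688, plus strand) encodes B-MYB, which joins MuvB when cells enter the cycle. It had 40.6, 22.1 and 37.2 CPM in WT and 26.6, 37.2 and 20.2 CPM in ΔrsCBE, and the groups overlapped. The log2 fold change was -0.29, with a 95% interval from -0.90 to 0.32 (edgeR adjusted p-value 0.812).

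The atypical E2Fs bind DNA without a DP partner and repress. E2f8 (chromosome 7, 48866429 to 48881596, minus strand) stood at 149, 118 and 117 CPM across the WT replicates, against 66.6, 87.8 and 60.6 CPM across the ΔrsCBE replicates 1 to 3. Every ΔrsCBE library lay below every WT library, as did 8.92% of all genes tested (the reverse held for 7.23%). The means were 128 ± 18.4 and 71.7 ± 14.3 CPM (SD, n = 3), and the log2 fold change was -0.82 (SE 0.18, edgeR adjusted p-value 0.0135), the gene's p ranking 84 among 7792. The call was lost without WT replicate 1 (log2 fold change -0.70, edgeR adjusted p-value 0.113), without WT replicate 3 (-0.90, 0.0542) and without ΔrsCBE replicate 3 (-0.72, 0.139), and with a sex covariate (-0.93, 0.0870). Adjusted p-values over all alternatives lay between 0.00155 and 0.139, and the log2 fold change was below 0 in each of the 15. Among male libraries alone, 3 WT and 1 ΔrsCBE, it was -0.93 (edgeR adjusted p-value 0.0226); the lone ΔrsCBE library is assumed there to vary as the WT libraries do. The noncoding gene Gm2788, on the opposite strand of E2f8, was at 0 counts in every library.

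E2f7 (chromosome 10, 110745439 to 110787384, plus strand), the closest relative of E2f8, had 51.9, 34.3 and 34.8 CPM in WT and 37.5, 36.2 and 26.5 CPM in ΔrsCBE. The groups overlapped, with the highest value in WT replicate 1 and the lowest in ΔrsCBE replicate 3. The log2 fold change was -0.25, with a 95% interval from -0.80 to 0.29, which overlaps that of E2f8 (-1.20 to -0.44).

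Foxm1 (chromosome 6, 128362967 to 128376146, plus strand) encodes a forkhead factor that drives genes of G2 and mitosis. It had 115, 147 and 122 CPM in WT and 53.3, 102 and 70.7 CPM in ΔrsCBE. As for E2f8, all ΔrsCBE values lay below all WT values, and ΔrsCBE replicate 2 was the highest of its group. The means were 128 ± 16.8 and 75.4 ± 24.9 CPM (SD, n = 3), giving a log2 fold change of -0.73 (SE 0.20, edgeR adjusted p-value 0.0642, unadjusted p 0.00125). It passed the threshold in some alternatives and not in others: without ΔrsCBE replicate 2 the log2 fold change was -1.02 (edgeR adjusted p-value 0.00143), and without ΔrsCBE replicate 3 it was -0.68 (0.314). Among the male libraries alone it was -1.24 (0.00136), against -0.73 over all libraries. Foxm1 overlaps Tex52 and Gm44596 on the same strand in GENCODE M21, where reads may be shared; Tex52 had 3 counts in all 6 libraries together.

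**Figure D2:**
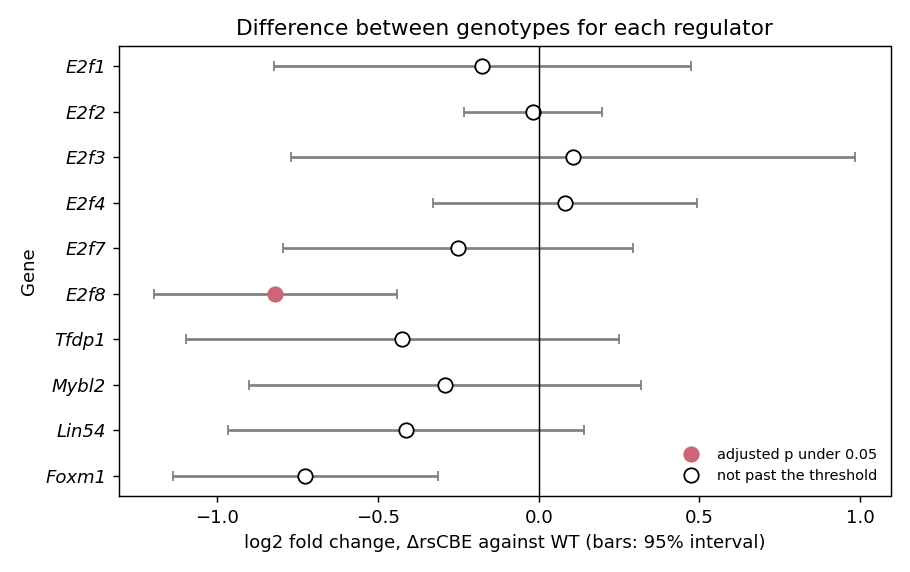
Log2 fold change of each of the 10 regulators, ΔrsCBE against WT, with 95% intervals from edgeR; the filled point passed an adjusted p of 0.05. E2f8 is the filled point at -0.82, the interval of Foxm1 also lies below 0, and those of the other 8 genes cross 0.

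Of the 10 log2 fold changes 8 were below 0, as were 48.2% of those of all tested genes, and their median was -0.27. At an unadjusted p under 0.05, 2 of the 10 were lower, against 6.02% of all tested genes, and 0 were higher, against 4.22%. The summed level of the 10 genes averaged 1175 ± 75.2 CPM in WT against 1035 ± 104 CPM in ΔrsCBE (SD, n = 3), with a two-sided exact permutation p of 0.2, where 3 libraries against 3 cannot go below 0.1. E2f2 makes up most of that sum. Without it the other 9 genes summed to 566, 476 and 527 CPM in WT and to 361, 467 and 345 CPM in the ΔrsCBE libraries, with no overlap and a two-sided exact permutation p of 0.1; this second sum was chosen after the values were seen.

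Whether E2f8 and Foxm1 changed relative to other regulators was read from ratios of counts within a library, which do not depend on library scaling. These 5 ratios were chosen after the values were seen. For every 100 counts of E2f2 the WT replicates 1 to 3 held 22.0, 18.97 and 17.9 counts of E2f8, and the ΔrsCBE replicates 9.86, 13.1 and 10.3, with no overlap. Foxm1 had 16.9, 23.7 and 18.6 counts per 100 of E2f2 in WT and 7.89, 15.2 and 12.1 in ΔrsCBE, again with no overlap. E2f8 set against E2f7 had 287.5, 343 and 336 counts per 100 in WT and 177, 243 and 229 in ΔrsCBE. Foxm1 against the repressor gene E2f4 had 197, 176 and 154 in WT and 84.6, 122 and 81.2 in ΔrsCBE. Each of these 4 ratios had a two-sided exact permutation p of 0.1, the smallest possible, and 0.125 after Benjamini-Hochberg adjustment over the 5. E2f8 against Foxm1 was 102 ± 25.3 in WT and 98.9 ± 22.6 in ΔrsCBE (SD, n = 3; exact permutation p = 0.9), so a difference between these genes in their response was not detected.

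The targets of the circuit were read from lists, which were chosen with earlier results of these data known. Genes of G2 and mitosis known as targets of B-MYB, MuvB and FOXM1 had 33 tested members of 37. Of the tested members, 24 fell, 0 rose and 9 did not pass, where 1.49% of all tested genes fell and 0.205% rose. The median log2 fold change of the 33 was -1.19 and their range -2.01 to -0.52. The 4 most abundant were Mki67, a marker of dividing cells, Top2a, a topoisomerase, Kif11, a spindle motor, and Nusap1, a spindle protein. Mki67 went from 3569 ± 165 to 1822 ± 516 CPM and Top2a from 1108 ± 123 to 482 ± 153 CPM (SD, n = 3), with edgeR adjusted p-values of 0.01 and 0.00715. The log2 fold changes of Kif11 and Nusap1 were -1.07 and -1.18 (edgeR adjusted p-values 0.000945 and 0.00801). The count of 24 became 14 without WT replicate 3, without ΔrsCBE replicate 3 and in the fit with a sex covariate, and 23 among the male libraries alone.

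Genes of the G1/S transition known as E2F targets had 28 tested members of 35. Of the 28, 3 fell, 0 rose and 25 did not pass, where 1.49% of all tested genes fell and 0.205% rose. Their median was -0.46 and their range -1.10 to 0.08. At an unadjusted edgeR p under 0.05, 15 were lower and 0 higher, against 6.02% and 4.22% of all tested genes. The 3 that fell, named after their values were seen except for Uhrf1, were Rrm2, a ribonucleotide reductase subunit (log2 fold change -0.87, edgeR adjusted p-value 0.00694), Pola1, a DNA polymerase subunit (-0.82, 0.0173), and Uhrf1, which guides maintenance methylation (-0.70, 0.0214). Among the other 3 of the most abundant genes, Ezh2 had a log2 fold change of -0.08, Dnmt1 one of -0.30 and Msh6 one of -0.04. The 3 calls became 0 without ΔrsCBE replicate 3 and with the sex covariate, 1 without WT replicate 3, 5 among the male libraries and 8 without ΔrsCBE replicate 2.

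**Figure D3:**
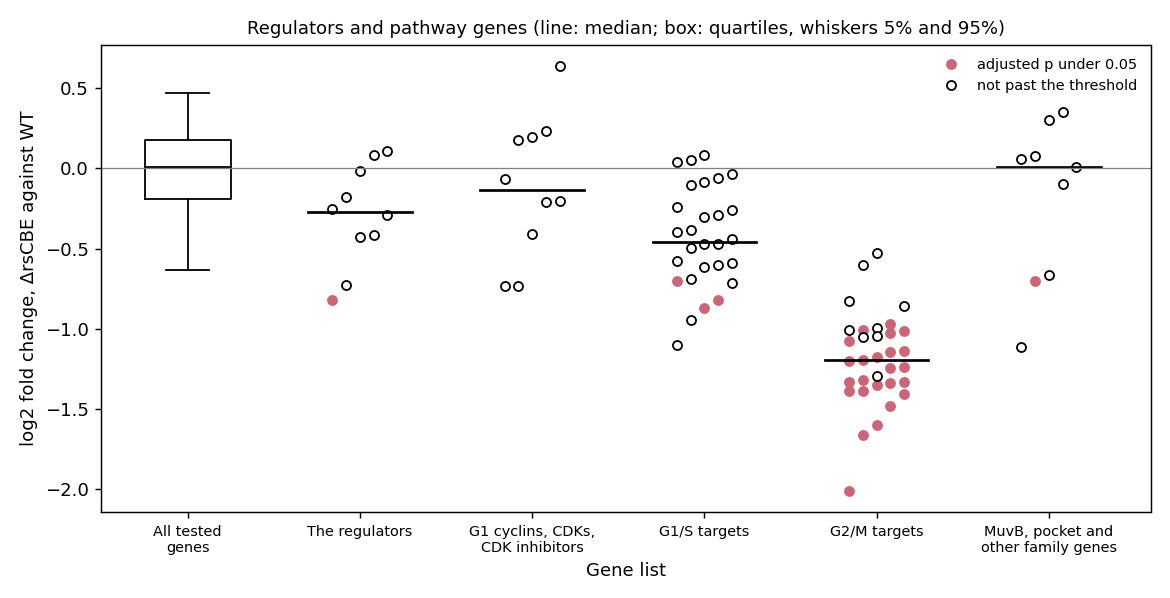
Log2 fold change, ΔrsCBE against WT, of all 7792 tested genes (box: quartiles, whiskers at 5% and 95%), of the 10 regulators and of the tested members of 4 pathway lists; filled points passed an adjusted p of 0.05 and lines are medians. The G2/M targets have their median at -1.19, the G1/S targets at -0.46 and the regulators at -0.27, beside 0.01 for all tested genes.

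Partners of the regulators were listed separately: pocket proteins, other MuvB subunits and other E2F and MYB family genes. Of 12 genes 9 were tested, 1 fell, 0 rose and 8 did not pass, where 1.49% of all tested genes fell and 0.205% rose. The median log2 fold change of the 9 was 0.01. At an unadjusted edgeR p under 0.05, 3 of the 9 were lower and 1 was higher, against 6.02% and 4.22% of all tested genes. The gene that fell at the adjusted threshold was Rbbp4, a histone-binding subunit of MuvB and of other chromatin complexes. It had 341, 385 and 348 CPM in WT and 226, 214 and 216 CPM in ΔrsCBE, and its log2 fold change was -0.70 (SE 0.12, edgeR adjusted p-value 0.00111). The groups lay far apart compared with their spread. Rb1, the retinoblastoma pocket protein gene, had a log2 fold change of 0.08, and Tfdp2, the gene of another DP partner, one of 0.06. Myb, the family member that acts in blood progenitors, averaged 3288 ± 130 CPM in WT against 4059 ± 551 CPM in ΔrsCBE (SD, n = 3); the log2 fold change of 0.30 did not pass (edgeR adjusted p-value 0.123). ΔrsCBE replicate 1 lay within the WT range of Myb, and replicates 2 and 3 lay above it.

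Upstream of the pocket proteins, the list of G1 cyclins, CDKs and CDK inhibitors had 10 tested members of 17. By edgeR's test or DESeq2's 0 passed in either direction, where 1.49% of all tested genes fell and 0.205% rose by edgeR's. At an unadjusted edgeR p under 0.05, 2 were lower and 0 higher, against 6.02% and 4.22% of all tested genes. The 2 lower genes, named after their values were seen, were the CDK inhibitor genes Cdkn2d and Cdkn2c. Each lay at -0.73 on the log2 scale, with unadjusted edgeR p-values of 0.0104 and 0.0235. The median log2 fold change of the 10 was -0.13. Cdkn1b, an inhibitor of cyclin-CDK complexes, had a log2 fold change of 0.20, Ccnd3, the main cyclin D gene of pre-B cells, one of 0.24, Max, the partner of MYC, one of 0.18, and Cdk2 one of -0.41. The 95% interval of Ccnd3 ran from -0.05 to 0.52 and that of Cdk2 from -0.88 to 0.07. Ccnd1 and Cdkn2a were at 0 counts in every library.

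Library by library, ΔrsCBE replicate 2 stood closest to WT in E2f8, in Foxm1 and in both target lists. The summed G2/M targets stood at 7692, 8747 and 8229 CPM across the WT replicates, against 3242, 5104 and 3187 CPM across the ΔrsCBE replicates. The summed G1/S targets had 3123, 2918 and 2928 CPM in WT and 2168, 2637 and 1932 CPM in ΔrsCBE. ΔrsCBE replicate 1, the male library, lay below all WT libraries in all 4 measures, and E2f2 was not ordered this way. The 8 early-response genes, which tissue handling also induces, summed to 1484 to 1939 CPM in WT and 2366 to 3606 CPM in ΔrsCBE, without overlap. Here ΔrsCBE replicate 2 was again nearest to WT. Of the 7 tested, 2 rose and 5 did not pass, where 0.205% of all tested genes rose. Those that rose, named after their values were seen, were Jun and Fos. Their log2 fold changes were 0.80 and 1.02 (edgeR adjusted p-values 0.000106 and 0.00290). The part of the early-response genes in the result was not tested. Mitochondrial ribosomal RNA took 9.07% to 11.3% of the counts in WT and 8.83% to 8.90% in ΔrsCBE, without overlap, while all mitochondrial genes together took 9.76% to 12.2% and 9.60% to 9.84%, with overlap; their part was not tested either. In these bulk samples a smaller number of cycling cells and less of these RNAs per cell cannot be told apart.

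**Figure D4:**
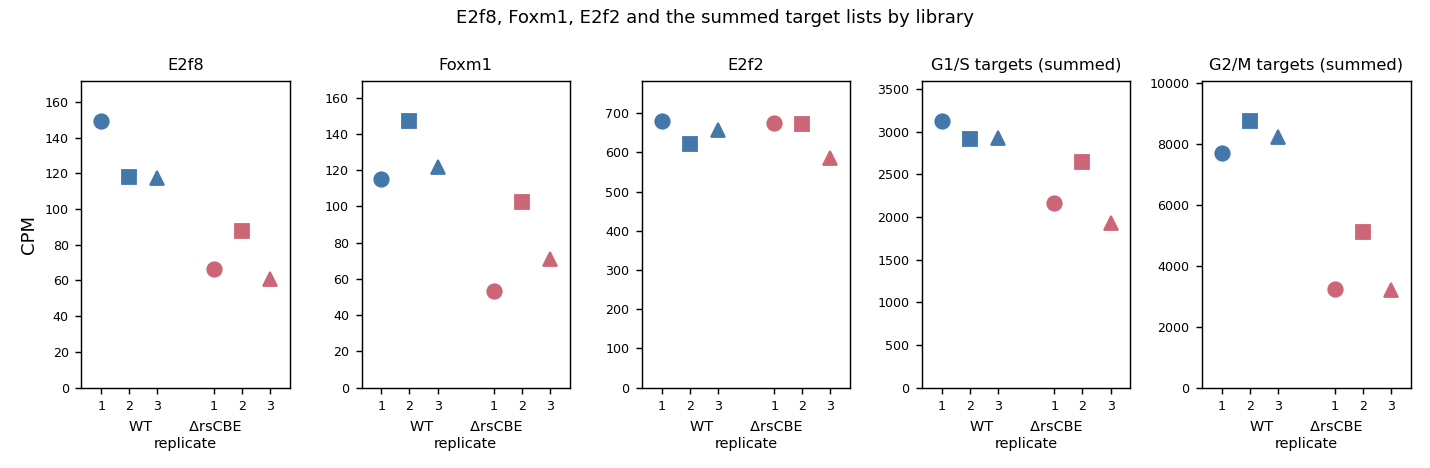
CPM of E2f8, Foxm1 and E2f2 and summed CPM of the G1/S and G2/M target lists in each library, with axes from 0; blue is WT, red is ΔrsCBE and symbols give the replicate number. ΔrsCBE replicate 2 is the highest red point for E2f8 (87.8 CPM), Foxm1 (102 CPM) and both lists, while E2f2 overlaps between the genotypes.

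The genes whose profile over the 6 libraries was most like the mean log2 CPM deviation of the 10 regulators were 2810002D19Rik (Pearson r 0.98), Gab2 (0.97), Dnmt1 (0.97), Gmfg (0.97) and Pcnx3 (0.97), each over 6 libraries. That mean profile was highest in WT replicates 1 and 3 (0.33 and 0.22) and lowest in ΔrsCBE replicate 3 (-0.34). WT replicate 2 (-0.20) lay below ΔrsCBE replicate 2 (0.12), so this unweighted mean does not follow the genotypes. Part of that order comes from E2f3. It deviated by -1.59 in WT replicate 2, from 2 counts, below the 3-count floor, and by 0.84 in ΔrsCBE replicate 2. None of these 5 genes passed the threshold between genotypes (edgeR adjusted p-values 0.537 to 0.912). The points share library depth, and the values describe likeness in these libraries only.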

How the data were processed

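RNA-seq libraries of small pre-B cells were compared between WT and ΔrsCBE mice. The authors deposited 1 table of raw read counts, 1 whole number for each gene symbol and library, without normalization. Trim Galore 0.6.10, STAR 2.7.11, HTSeq, DESeq2 and the build mm10 are named in the submitters' processing notes, without roles. The annotation and the strand setting are not given in the sources used here. The table lists 49997 symbols, of which 17435 had a count. Columns were matched to libraries by the library names in the labels.

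From these counts, edgeR 4.0.16 in R 4.3.3 kept 7792 genes with filterByExpr (minimum count 10), scaled libraries by TMM and tested genotype with glmQLFit (robust) and glmQLFTest. The Benjamini-Hochberg adjustment ran over all tested genes, and the threshold was an adjusted p of 0.05. The fit was tested on simulated data. Standard errors and 95% intervals of log2 fold changes derive from the F statistic. CPM values used TMM-scaled totals of the tested genes, and log2 CPM a prior count of 2. Levels per kilobase divide CPM by the summed exon length in GENCODE M21, whose build matches mm10.

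The 10 regulators and all lists were chosen with earlier results of these data known. The text names all 10, the 4 most abundant tested genes of each of 4 pathway lists, and 5 genes closest in profile. Other genes are marked where they were chosen after their values were seen. Alternatives covered scaling (DESeq2 size factors, library size), the DESeq2 1.42.0 Wald test, the count filter, the threshold, a replicate block, the sex of the libraries and each library left out.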

Additional observations from a re-analysis of the deposited data

How the results depend on the processing

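For E2f8 the log2 fold change was below 0 in each of the 15 alternatives run, and its call was lost in 4 of them. The number of regulators that fell, 1 in the reported fit, was 2 (E2f8 and Foxm1) without a count filter, under the looser filter of 1 CPM or more in 3 libraries, at a threshold of 0.1, with the replicate block and among male libraries alone. It was 1 with the sex covariate, and that gene was Foxm1. It lay between 0 and 2 when each library was left out. The cause was not tested. Small log2 fold changes turned sign: E2f2 was 0.0037 under that looser filter, 0.048 with the sex covariate and 0.0501 among male libraries. In those last 2 fits E2f3 was -0.25, E2f4 was -0.23 and Tfdp1 was 0.079; in them the genotype effect rests on ΔrsCBE replicate 1, and the cause was not tested. Leaving out each library gave -0.33 to 0.032 for E2f1, -0.055 to 0.044 for E2f2, -0.36 to 0.60 for E2f3 and -0.048 to 0.21 for E2f4.

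Of all tested genes, 16 were higher; the count was 9 with the DESeq2 Wald test, 25 without a count filter, 31 under the looser filter, 30 at a threshold of 0.1 and 41 among male libraries. The 116 lower genes became 72 with the sex covariate. Without single libraries the counts were 6 to 44 higher and 52 to 153 lower. The 3 G1/S targets that fell became 5 without a count filter, under the looser filter and among male libraries, and 0 with the sex covariate, and were 0 to 8 without single libraries. The 24 G2/M targets became 14 with the sex covariate and 14 to 27 without single libraries. In the list of partners, 2 genes fell at a threshold of 0.1 and 1 rose under the looser filter, and the counts were 1 to 2 lower and 0 to 1 higher without single libraries. The causes were not tested.

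The deviations of same-numbered libraries from their group means had correlations of 0.01, 0.02 and 0.01 between the genotypes. Counting noise also enters these deviations, so a shared batch or pairing could be missed. With the replicate block 136 genes were called, against 132, and 117 were shared.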
